A study of Mus musculus with 8 samples.

Results

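The chromosome 9 stromelysin and collagenase set held 5 genes, Mmp3, Mmp8, Mmp10, Mmp12 and Mmp13, out of 24982 genes counted in cultured mouse tendon cells with and without the transcription factor scleraxis (Scx). The genes were picked by symbol, with their difference between the groups already known. What is given on that difference is therefore a description and not a test. RNA was sequenced from cultured tail tendon fibroblasts of C57Bl/6 mice. There were 4 Scx-deleted libraries (genotype Scx-, titled ScxKO, numbers 2, 3, 4 and 5) and 4 Scx-positive libraries (genotype Scx+, titled ScxWT, numbers 2, 3, 5 and 6). Both groups had been given 4-hydroxytamoxifen (4HT), the drug that switches on inducible Cre recombinases. The labels give neither the Cre driver, the deleted part of Scx nor the age of the mice. Nor is it stated whether each library had an animal or a culture of its own, so their spread may be technical.

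Matrix metalloproteinases are zinc enzymes that cut proteins of the extracellular matrix, and most are secreted as inactive proenzymes. Collagenases such as the products of Mmp13 and Mmp8 cut the triple helix of fibrillar collagen, the load-bearing protein of tendon. Stromelysins such as the products of Mmp3 and Mmp10 cut proteoglycans, fibronectin and other matrix proteins and also activate procollagenases. Mmp12 encodes macrophage metalloelastase, which is neither a stromelysin nor a collagenase, so the name of the set does not cover it. In fibroblasts several genes of this cluster are classical targets of AP-1, a dimer of Fos and Jun family proteins, downstream of inflammatory cytokines and mechanical load.

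On GRCm38 the cluster spanned 427.1 kb of chromosome 9, between 7272514 and 7699585, and the annotation placed 10 Mmp genes in it, 9 of them on the plus strand. In chromosome order the members were Mmp13 (chr9:7272514-7283331), Mmp12 (chr9:7344381-7369499), Mmp3 (chr9:7445822-7455975), Mmp10 (chr9:7502352-7510240) and Mmp8 (chr9:7558456-7568485), all on the plus strand. The other cluster genes were Mmp1b, Mmp1a, Mmp27, Mmp20 and Mmp7. The last 1261 bases of Mmp12 overlap Mmp1b on the opposite strand, with 157 bases of exon in common, and the use of strand in counting is not stated, so reads there could belong to either gene.

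Only those promoter windows of members that match the AP-1 site are shown, so that its letters can be read directly. Each window runs from 250 bases before to 50 after the RefSeq start site (GRCm38.p6, plus strand), and capitals mark each match to the AP-1 motif TGANTCA. The windows are chr9:7272264-7272563 for Mmp13, chr9:7347124-7347423 for the second of the Mmp12 starts, chr9:7445572-7445871 for Mmp3 and chr9:7502092-7502391 for Mmp10.
Mmp13: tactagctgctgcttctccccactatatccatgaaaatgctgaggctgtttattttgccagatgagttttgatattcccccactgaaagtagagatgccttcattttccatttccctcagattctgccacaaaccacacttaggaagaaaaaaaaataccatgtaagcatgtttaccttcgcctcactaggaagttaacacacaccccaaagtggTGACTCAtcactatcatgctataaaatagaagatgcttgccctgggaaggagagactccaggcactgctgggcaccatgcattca
Mmp12: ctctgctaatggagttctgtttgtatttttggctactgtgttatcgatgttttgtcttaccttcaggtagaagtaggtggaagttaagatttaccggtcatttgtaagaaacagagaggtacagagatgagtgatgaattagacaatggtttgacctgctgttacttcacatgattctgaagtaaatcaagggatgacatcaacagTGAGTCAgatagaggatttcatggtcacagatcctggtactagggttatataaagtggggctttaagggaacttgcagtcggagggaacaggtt
Mmp3: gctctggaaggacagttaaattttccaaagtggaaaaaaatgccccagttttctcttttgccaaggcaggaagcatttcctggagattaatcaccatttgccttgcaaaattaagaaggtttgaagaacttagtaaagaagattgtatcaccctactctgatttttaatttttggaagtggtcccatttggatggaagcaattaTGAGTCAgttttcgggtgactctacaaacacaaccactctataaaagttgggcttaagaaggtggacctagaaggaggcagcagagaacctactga
Mmp10: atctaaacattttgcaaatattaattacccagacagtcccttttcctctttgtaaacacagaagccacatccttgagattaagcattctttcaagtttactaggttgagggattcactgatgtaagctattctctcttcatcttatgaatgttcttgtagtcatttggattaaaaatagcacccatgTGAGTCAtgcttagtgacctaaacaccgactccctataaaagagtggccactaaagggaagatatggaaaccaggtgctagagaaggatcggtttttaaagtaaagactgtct

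RefSeq windows were found for all 5 members. The motif TGANTCA, which reads the same pattern on both strands, was present in 4 of 5 members, once in each of the windows shown, and in 7.81% of the 32851 promoter windows of the genome. Its first base lay 35 bases before the start site in Mmp13, 44 in Mmp12, 46 in Mmp3 and 63 in Mmp10. The window of Mmp8 and the first of the Mmp12 windows had no match. The same letters were also in 4 of the 5 other Mmp genes of the cluster (Mmp1a, Mmp1b, Mmp20 and Mmp7), none of which had more than 6 counts in a group. The E-box CANNTG, the motif class that scleraxis and other basic helix-loop-helix proteins bind, was in 4 of 5 members, in all 5 of the other cluster genes and in 72.3% of all windows. In Mmp10 an E-box, CATGTG, shares 2 bases with the AP-1 match. Of the remaining motifs, the ETS-type AGGAAG was in 4 of 5 members and 35.4% of windows. The RUNX-type TGTGGT was in 1 of 5 (Mmp13) and 16.8%, and TATAAA in 5 of 5 and 13.6%, each searched on both strands. A gene is counted here if any of its windows has a match, while the percentages are of single windows. Mmp12 has AGGAAG only in its first window, which is not shown, and its AP-1, E-box and TATAAA matches only in the second. A match describes the letters of a window and does not show that a protein binds there.

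Scx itself served as a check of the labels. It had 3, 1, 2 and 3 counts in Scx-deleted libraries 2, 3, 4 and 5, against 177, 132, 252 and 156 counts in Scx-positive libraries 2, 3, 5 and 6. Depth was 17343228 to 22178439 gene counts in Scx-deleted and 18408278 to 25180790 in Scx-positive libraries. The 9 tendon genes of the marker list, Scx among them, had counts in every library. Their summed level was 6484 to 7256 CPM in Scx-deleted and 9222 to 11763 CPM in Scx-positive cells, where CPM are counts scaled to a common library size. In the fit over all genes described below, 8 of the 9 were lower in Scx-deleted cells and 0 higher, at an adjusted p under 0.05. Of all tested genes 14.5% were lower and 14.0% higher. Scx-positive library 5 stood apart from the others of its group on the second principal component of log2 CPM, which held 12.9% of the variance.

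The stromelysin gene Mmp10 was higher without Scx. Its counts were 244, 283, 249 and 319 in Scx-deleted libraries 2, 3, 4 and 5, against 76, 43, 64 and 76 in Scx-positive libraries 2, 3, 5 and 6. Every Scx-deleted library lay far above every Scx-positive one, and within each group the libraries were close together. The level was 13.6 ± 0.997 CPM in Scx-deleted and 2.87 ± 0.513 CPM in Scx-positive cells (SD, n = 4 each), a fold of 4.73 between the means. The log2 difference of the fit was 2.23 ± 0.11 (SE).

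Mmp3, the other stromelysin gene, differed less. It had 220, 314, 239 and 298 counts in Scx-deleted libraries 2, 3, 4 and 5, and 118, 99, 135 and 136 in Scx-positive libraries 2, 3, 5 and 6. The groups did not overlap, and the Scx-positive libraries were within 5.11 to 5.94 CPM of each other. The level was 13.3 ± 1.52 CPM in Scx-deleted and 5.45 ± 0.357 CPM in Scx-positive cells (SD, n = 4 each), a fold of 2.44 and a log2 difference of 1.28 ± 0.10 (SE).

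The collagenase gene Mmp13 varied most among the 3 abundant members. It had 226, 269, 158 and 344 counts in Scx-deleted libraries 2, 3, 4 and 5, and 48, 63, 103 and 50 in Scx-positive libraries 2, 3, 5 and 6. Scx-deleted library 5 was highest at 15.5 CPM and library 4 lowest at 9.17 CPM, while Scx-positive library 5 reached 4.15 CPM, so the groups still stood apart. The level was 12.2 ± 2.62 CPM in Scx-deleted and 2.95 ± 0.992 CPM in Scx-positive cells (SD, n = 4 each), a fold of 4.13 and a log2 difference of 2.05 ± 0.19 (SE). Leaving out 1 library at a time gave log2 differences of 1.92 to 2.30. The highest, 2.30 ± 0.17, was without Scx-positive replicate 5, the highest library of its group. Without both that library and Scx-deleted replicate 4, the lowest of its group, the log2 difference was 2.41 ± 0.15. That double omission was not planned and takes out the libraries that narrow the gap. The coefficient of variation of Mmp13 was 21.5% in Scx-deleted and 33.7% in Scx-positive libraries, against 7.33% and 17.9% for Mmp10 and 11.5% and 6.56% for Mmp3 in the same order of groups.

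Mmp8, the neutrophil collagenase gene, was barely counted in either group. Scx-deleted libraries 2, 3, 4 and 5 had 0, 0, 1 and 1 counts, and Scx-positive libraries 2, 3, 5 and 6 had 0, 0, 0 and 2. No library exceeded 3 counts, the limit that a count of 0 allows, which is 0.121 to 0.174 CPM at these depths and covers counting error only. A difference in Mmp8 was therefore not detectable at this depth, and no fold is given.

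Mmp12, the metalloelastase gene, had few counts but stood apart between groups. It had 25, 22, 25 and 54 counts in Scx-deleted libraries 2, 3, 4 and 5, and 4, 1, 4 and 4 in Scx-positive libraries 2, 3, 5 and 6. All Scx-deleted libraries were higher, and library 5 held more than the others of its group. The level was 1.54 ± 0.615 CPM in Scx-deleted and 0.141 ± 0.0584 CPM in Scx-positive cells (SD, n = 4 each). The depth-scaled ratio of the summed counts, 126 in Scx-deleted and 13 in Scx-positive libraries, was 10.8, and counting error alone gave it an exact Clopper-Pearson 95% interval from 6.07 to 20.8. The log2 difference was 3.37 ± 0.40 (SE), the largest of the 13125 genes that passed the filter on low counts, where Mmp10 ranked 3, Mmp13 ranked 5 and Mmp3 ranked 40. Mmp12 passed that filter only through the Scx-deleted libraries, so it had to differ to be fitted at all. Mmp1b, whose exons it partly shares, had 3 counts in all Scx-deleted and 6 in all Scx-positive libraries.

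**Figure D1:**
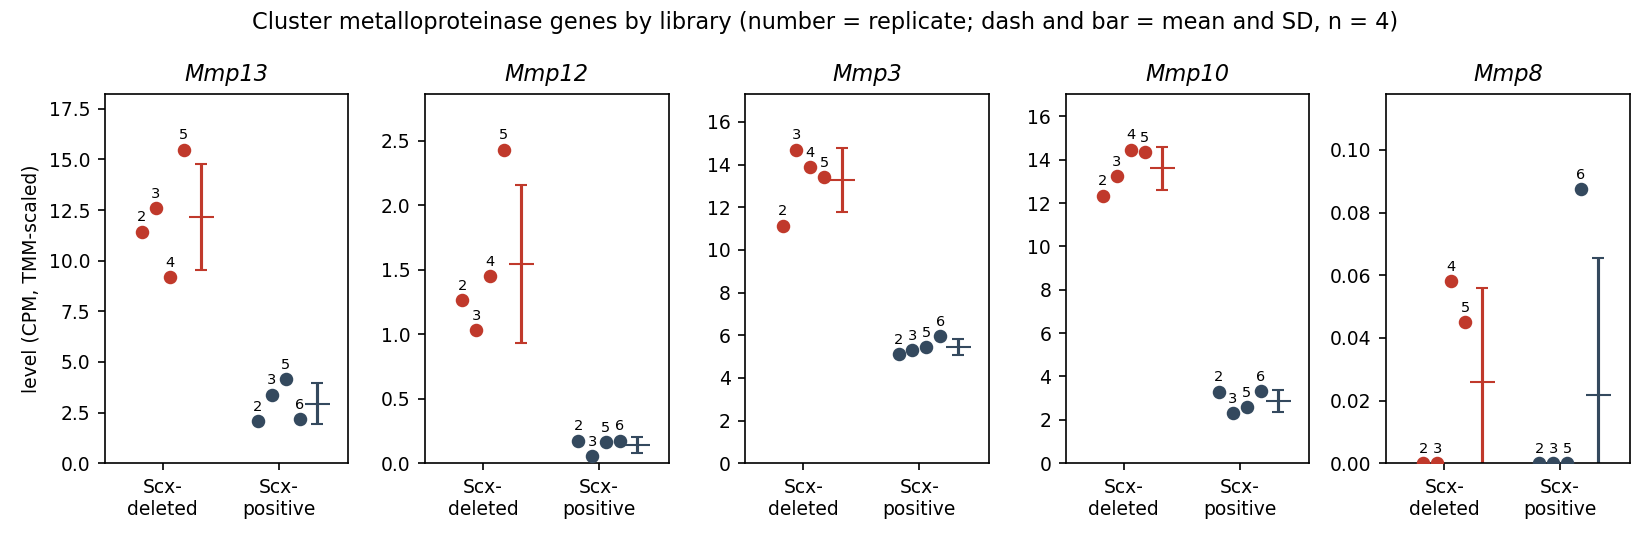
Level of each member in CPM (vertical axes, separate scale per gene) by library, with the replicate number above each point and the mean and SD (n = 4) beside it. For Mmp13, Mmp12, Mmp3 and Mmp10 all 4 Scx-deleted libraries sit above all 4 Scx-positive libraries, while Mmp8 has at most 2 counts in any library.

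In the fit over all genes 4 of 5 members were fitted, with log2 differences of 1.28 to 3.37, given as a description. The threshold for all other genes was a Benjamini-Hochberg adjusted p under 0.05 by edgeR's quasi-likelihood test. Over all 13125 genes 28.5% were past it, 14.0% higher and 14.5% lower. In 14.8% the groups did not overlap, with the Scx-deleted libraries above. No test result is given for the members, since the genes were proposed with this contrast in view. The authors' deposited table lists 4 of the members, with a log2 fold change of 2.27 for Mmp10, 1.25 for Mmp3, 2.12 for Mmp13 and 3.38 for Mmp12, and -5.94 for Scx. The direction of the authors' deposited table is not stated in its header and was read from the sign of Scx.

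The shares of Mmp3, Mmp10 and Mmp12 in the summed level of the members did not overlap between the groups. Shares of a sum depend on one another and follow from the differences given above, so they are no separate result. Summed over the 5 members the level per kilobase of exon was 20.04 ± 1.73 CPM per kb in Scx-deleted and 5.82 ± 0.317 CPM per kb in Scx-positive cells (SD, n = 4 each), a fold of 3.44. Mmp3 made up 36.8% ± 2.83 of that sum in Scx-deleted and 51.9% ± 1.99 in Scx-positive libraries. Mmp10 made up 39.5% ± 2.40 in Scx-deleted and 28.7% ± 5.15 in Scx-positive libraries (SD, n = 4 each). Mmp10 thus had the higher level per kilobase of the stromelysin genes in Scx-deleted cells by a margin within the SDs, at 7.90 ± 0.579 against 7.37 ± 0.845 CPM per kb for Mmp3. In Scx-positive cells Mmp10 was the lower of the pair by more than the SDs, at 1.67 ± 0.298 CPM per kb for Mmp10 and 3.02 ± 0.198 CPM per kb for Mmp3. Mmp13 took 22.6% ± 3.83 of the sum in Scx-deleted and 18.9% ± 6.12 in Scx-positive libraries, and these ranges overlapped. Mmp12 took 1.05% ± 0.351 in Scx-deleted and 0.331% ± 0.135 in Scx-positive libraries. Mmp13 stood at 4.55 ± 0.980 CPM per kb in Scx-deleted and 1.10 ± 0.371 CPM per kb in Scx-positive cells, and Mmp12 at 0.213 ± 0.0850 and 0.0194 ± 0.00807 CPM per kb in the same order of groups.

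The other Mmp genes of the cluster had few counts or none. Mmp27 had 6, 4, 7 and 8 counts in Scx-deleted libraries 2, 3, 4 and 5, and 5, 4, 0 and 4 in Scx-positive libraries 2, 3, 5 and 6. Its depth-scaled ratio was 2.14, with an exact 95% interval of 1.05 to 4.55 for counting error only, and the groups overlapped. Mmp1b had 3 counts summed over the Scx-deleted and 6 over the Scx-positive libraries, Mmp1a had 2 and 0, Mmp20 had 0 and 1, and Mmp7 had 0 in both. None of the 5 passed the filter on low counts. Mmp1a and Mmp1b are closely similar in sequence, so reads shared by them could have been left out of the counts.

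Genes beside the cluster differed by smaller amounts than the fitted members, which were chosen with their difference known. Of all 13125 tested genes only 0.61% were at least 2-fold higher, so smaller differences are usual for any gene. Of the 5 nearest protein-coding genes on each side 9 were tested, and 1 rose and 3 fell, where 28.5% of all genes were past the threshold. These p-values measure only the spread between the libraries at hand. Yap1, which encodes a transcriptional coactivator of the Hippo pathway, rose by 0.27 ± 0.04 (log2, SE; adjusted p = 0.000166 by edgeR's quasi-likelihood test) at 204.7 ± 5.42 CPM in Scx-deleted and 170.1 ± 6.88 CPM in Scx-positive cells (SD, n = 4 each). Pdgfd, a platelet-derived growth factor gene, had a log2 difference of -0.23 ± 0.05, Casp12, an inflammatory caspase gene, -0.28 ± 0.07, and Birc2, an inhibitor of apoptosis gene, -0.23 ± 0.06. Pdgfd and Casp12 are distant, ending at -893.7 kb and -1899.5 kb from the start of Mmp13. The genes next to the cluster, Dcun1d5 on the Mmp13 side (-0.06 ± 0.05) and Tmem123 on the Mmp7 side (0.01 ± 0.04), did not pass the test, nor did Dync2h1 (-0.12 ± 0.07), Birc3 (0.17 ± 0.07) or Cfap300 (-0.15 ± 0.10), and Ddi1 had 0 counts. Without Scx-positive replicate 5, Birc3 passed as higher (adjusted p = 0.0333, range over the alternatives 0.0333 to 0.441) and Dync2h1 as lower (adjusted p = 0.0494, range 0.0494 to 0.597), which made 2 that rose and 4 that fell.

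**Figure D2:**
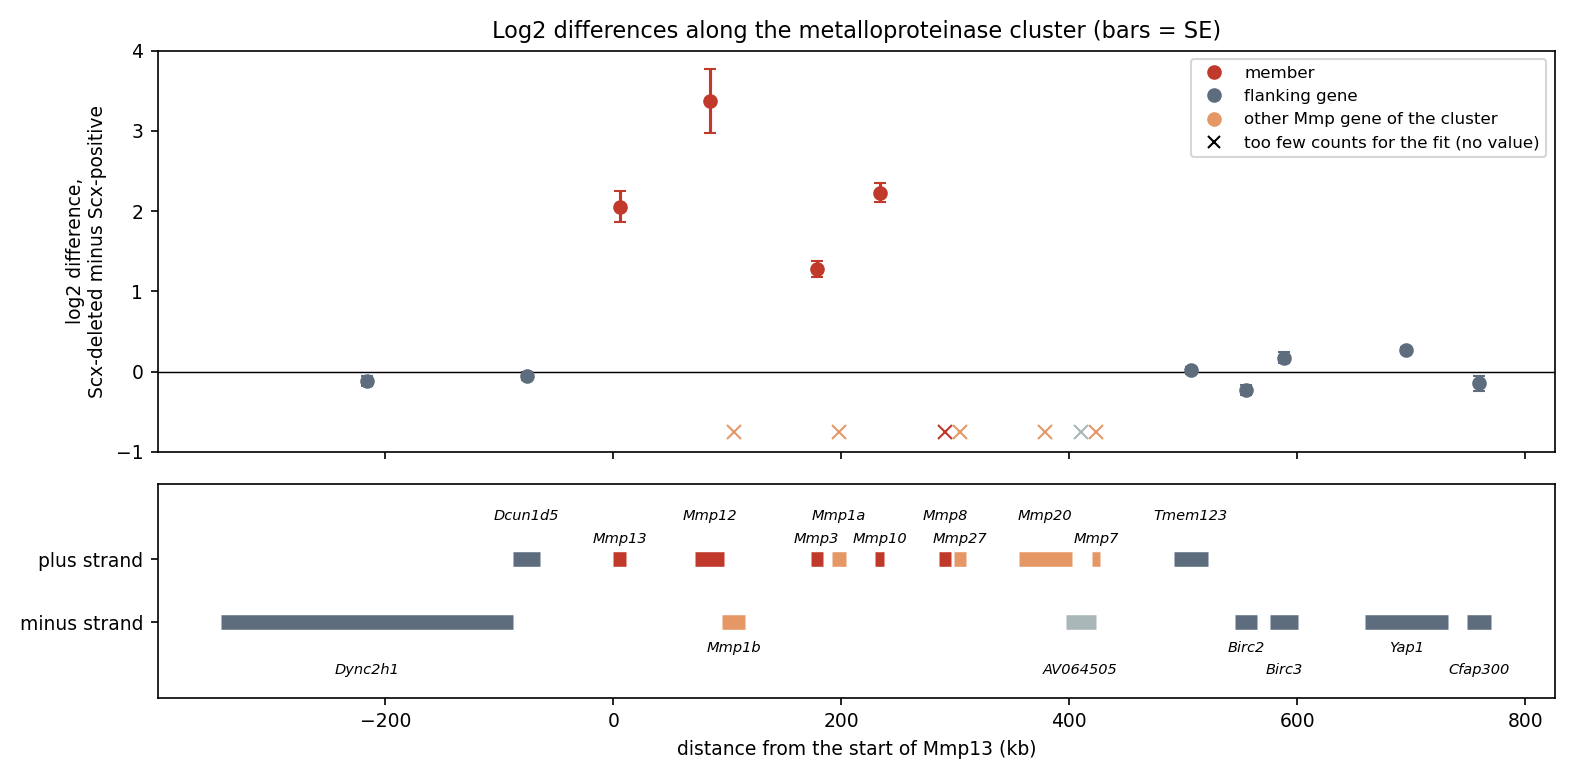
Log2 difference of Scx-deleted minus Scx-positive cells with its SE (upper panel) for genes along the cluster, and their positions and strands (lower panel), by distance from the start of Mmp13 in kb. The 4 fitted members lie between 1.28 and 3.37, and the 7 fitted flanking genes drawn lie between -0.23 and 0.27, while crosses mark genes with too few counts for the fit, among them the antisense gene AV064505 (light grey, 0 counts). Casp12, Ddi1 and Pdgfd lie farther out and are not drawn.

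Outside the cluster the metalloproteinase family did not move in a single direction. Of 13 listed genes 10 were tested, 3 rose and 3 fell, where 14.0% of all tested genes rose and 14.5% fell. The median log2 difference was 0.06 beside -0.01 over all genes tested. Mmp2, a gelatinase gene, rose by 0.36 ± 0.05 (adjusted p = 0.00012, edgeR), at 122.9 ± 8.15 CPM in Scx-deleted and 96.0 ± 5.09 CPM in Scx-positive cells (SD, n = 4 each). Mmp14, the membrane-type enzyme that activates the proenzymes of Mmp2 and Mmp13, rose by 0.24 ± 0.05, and the stromelysin-like Mmp11 rose by 0.38 ± 0.07. Mmp17 and Mmp16, which encode membrane-type enzymes, fell by 0.94 ± 0.15 and 0.59 ± 0.08 on the log2 scale, and Mmp23 fell by 0.43 ± 0.07. Without Scx-positive replicate 5 the count that rose was 5. In level per kilobase, Mmp14 was highest of the 23 Mmp genes in both groups, at 216.9 ± 5.05 CPM per kb in Scx-deleted and 183.8 ± 14.7 CPM per kb in Scx-positive cells. Mmp10 ranked 6, Mmp3 ranked 7 and Mmp13 ranked 8 in Scx-deleted cells, against 8, 6 and 12 in Scx-positive cells.

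**Figure D3:**
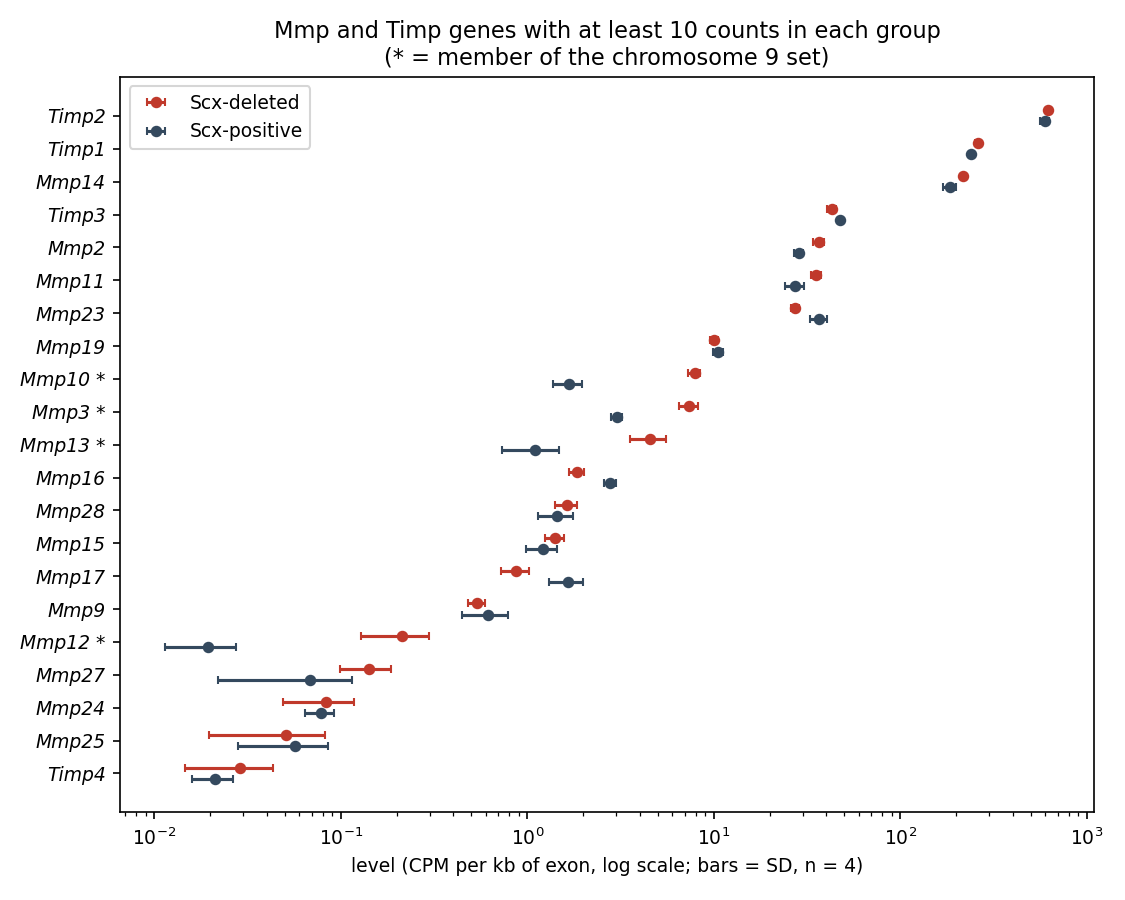
Mean level per kilobase of exon (CPM per kb, log axis) with SD (n = 4) for the Mmp and Timp genes with at least 10 counts in each group. The starred members Mmp10, Mmp3, Mmp13 and Mmp12 show the widest gaps between Scx-deleted and Scx-positive cells, and Mmp14, Timp1 and Timp2 stand far above the members in both.

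Genes of metalloproteinase inhibitors changed little and in both directions. Of 7 listed genes 4 were tested, 2 fell and 1 rose, beside 14.5% and 14.0% of all tested genes. The median log2 difference was -0.04. Reck, a membrane-anchored inhibitor of several metalloproteinases, fell by 0.43 ± 0.06 (adjusted p = 3.45e-05, edgeR), at 51.6 ± 4.17 CPM in Scx-deleted and 69.8 ± 2.52 CPM in Scx-positive cells (SD, n = 4 each). Timp3 fell by 0.15 ± 0.04 and Timp1 rose by 0.11 ± 0.04, while Timp2, the most abundant, had a log2 difference of 0.06 ± 0.05 that did not pass. The Timp1 call (adjusted p = 0.0494) was kept in 5 of 17 alternatives, with adjusted p of 0.0163 to 0.248, and the Timp3 call in 14 of 17, with 0.00619 to 0.0833. Timp2 passed without Scx-positive replicate 5 (adjusted p = 0.023, range over the alternatives 0.023 to 0.695).

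Genes that act on the proenzymes were mixed. In the list of activators and the plasminogen system 9 of 11 were tested, 3 rose and 1 fell, with a median of 0.04. Over all tested genes 14.0% rose and 14.5% fell. Plau, the gene of urokinase, which starts the plasmin cascade upstream of prostromelysin, fell by 0.36 ± 0.04 (adjusted p = 1.77e-05, edgeR), at 92.5 ± 3.80 CPM in Scx-deleted and 118.9 ± 4.01 CPM in Scx-positive cells (SD, n = 4 each). Its receptor gene Plaur rose by 0.32 ± 0.05, and Serpine2, the gene of a serine protease inhibitor that acts on urokinase, rose by 0.52 ± 0.07. Plg, the gene of plasminogen itself, had 0 counts in every library. In the list for clearance and collagen uptake 3 of 6 rose and 0 fell, beside the same 14.0% and 14.5%, with 1 falling under some settings. Those that rose were the lysosomal cathepsin genes Ctsk (0.80 ± 0.07), Ctsb (0.31 ± 0.05) and Ctsl (0.20 ± 0.04), of which Ctsk encodes a collagen-degrading enzyme. The collagen uptake receptor gene Mrc2 had a log2 difference of -0.17 ± 0.06 (adjusted p = 0.0539) and passed as lower in 5 of 17 alternatives, with adjusted p of 0.0197 to 0.176.

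Transcription factors known at these promoters also went both ways. Of 20 tested genes 6 rose, 4 fell and 10 did not pass, where 14.0% of all tested genes rose and 14.5% fell. The median log2 difference was 0.04. Within AP-1, Fosl1 rose by 0.50 ± 0.05 (adjusted p = 2.34e-06, edgeR), with 91.9, 93.0, 98.0 and 95.04 CPM in Scx-deleted libraries 2, 3, 4 and 5, against 66.2, 61.8, 67.1 and 72.4 CPM in Scx-positive libraries 2, 3, 5 and 6. All Scx-deleted libraries lay above. Fos fell by 0.40 ± 0.06, at 32.8 ± 0.828 CPM in Scx-deleted and 43.1 ± 3.64 CPM in Scx-positive cells (SD, n = 4 each), and Jun fell by 0.16 ± 0.05. The ETS family genes Ets2 (0.60 ± 0.08), Etv4 (0.46 ± 0.08) and Etv5 (0.29 ± 0.05) rose, as did Runx1 (0.24 ± 0.05) and Cebpb (0.31 ± 0.10). Ets1 (-0.02 ± 0.05) and Etv1 (0.29 ± 0.11, adjusted p = 0.0649, edgeR) did not pass. Nor did the AP-1 genes Fosl2 (0.02 ± 0.04), Fosb, Junb and Jund. Runx2, a bone regulator known to act at the Mmp13 promoter, fell by 0.16 ± 0.05, and Nfkb1, an NF-kB subunit gene, fell by 0.24 ± 0.04. The calls of Cebpb and Runx2 were each kept in 11 of 17 alternatives and that of Jun in 14 of 17, with adjusted p up to 0.0951, 0.137 and 0.0732.

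Of the inducers, 12 of 18 listed genes were tested, 2 rose and 4 fell, with a median of 0.04. Among all tested genes 14.0% rose and 14.5% fell. Tgfb1 rose by 0.55 ± 0.08 (adjusted p = 0.000104, edgeR), at 37.8 ± 2.71 CPM in Scx-deleted and 25.7 ± 3.21 CPM in Scx-positive cells (SD, n = 4 each), and the oncostatin M receptor gene Osmr rose by 0.20 ± 0.04. The interleukin receptor genes Il1r1 and Il6st fell by 0.39 ± 0.07 and 0.47 ± 0.05, Egfr fell by 0.32 ± 0.05 and the collagen receptor gene Ddr1 fell by 0.29 ± 0.07. The collagen receptor gene Ddr2 did not pass (0.05 ± 0.04). The classical inducing cytokine genes Il1b, Tnf and Il1a were near 0. Il1b had 0 counts in every library, Tnf had 2 in all Scx-deleted and 3 in all Scx-positive libraries, and Il1a had 4 and 3 in the same order of groups. Il6 had 30 and 38 in that order, and Lif, which did not pass, had 1121 and 1209.

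**Figure D4:**
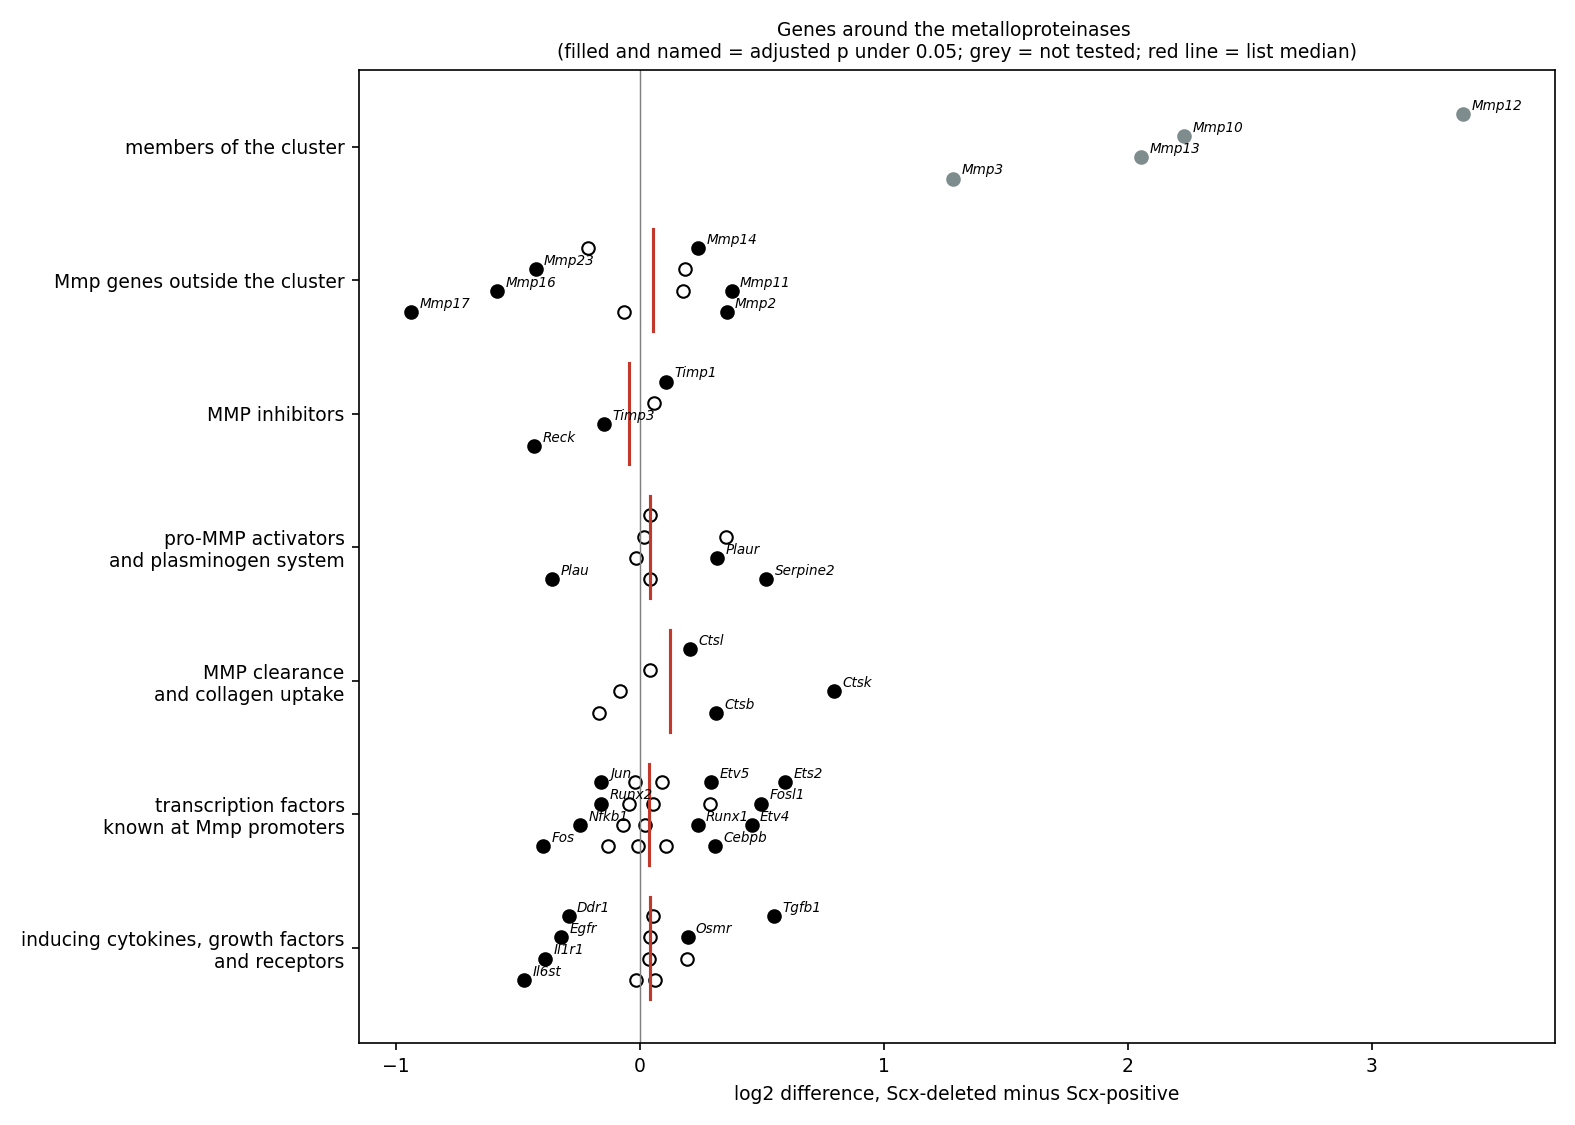
Log2 difference of Scx-deleted minus Scx-positive cells (horizontal axis) for the fitted members, in grey and not tested, and for the tested genes of 6 lists, 1 of them not drawn, filled and named where the adjusted p was under 0.05, with the list median as a red line. The list medians lie between -0.04 and 0.12, and in each list the genes past the threshold lie between -0.94 and 0.80, below the members at 1.28 to 3.37.

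Markers of cells other than fibroblasts were read beside Mmp12, Mmp8 and Mmp13, since macrophages, neutrophils and hypertrophic chondrocytes are their best-known sources. In bulk RNA a change in the number of such cells and a change in RNA per cell cannot be told apart. The 10 macrophage markers summed to 24.3 to 28.04 CPM in Scx-deleted and 22.2 to 24.6 CPM in Scx-positive libraries. Of 5 tested, 2 rose (Cd68 and Csf1r, by 0.59 ± 0.14 and 0.70 ± 0.20) and 1 fell (Mrc1, by 0.72 ± 0.18). The shares over all tested genes were 14.0% higher and 14.5% lower. Csf1r did not pass with the replicate number as a block, with an adjusted p of 0.112 in all libraries and of 0.11 in numbers 2, 3 and 5, within 0.00555 to 0.112 over the alternatives. The list was uneven in level. Cd14 had 1212 counts in all Scx-deleted and 1275 in all Scx-positive libraries, Cd68 373 and 277, Csf1r 235 and 161, and Lyz2 113 and 141. Near 0 were Adgre1, with 0 and 2 counts in the same order of groups, Ptprc, with 5 and 3, and Itgam, with 11 and 9. Fcgr1 and Cd163 had none. Cd68 and Csf1r moved in the same direction as Mmp12, and their part in it was not tested. The 9 neutrophil markers summed to 0.456 to 0.755 CPM in Scx-deleted and 0.483 to 0.909 CPM in Scx-positive libraries, with S100a9, Elane and Csf3r at 0.

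Col10a1, the type X collagen gene that hypertrophic cartilage expresses with Mmp13, was past the threshold on the higher side, the direction of the Mmp13 difference. It stood at 9.57, 11.1, 81.2 and 14.5 CPM in Scx-deleted libraries 2, 3, 4 and 5, against 7.32, 8.24, 9.74 and 7.95 CPM in Scx-positive libraries 2, 3, 5 and 6. The Scx-positive libraries had the same order for Col10a1 as for Mmp13, and so did Scx-deleted libraries 2, 3 and 5. Scx-deleted library 4 was the highest of its group for Col10a1 and the lowest for Mmp13. Scx-positive libraries 2 and 6 had 48 and 50 counts of Mmp13, so their order is uncertain. The other tested cartilage markers, Sox9, Hapln1, Col2a1 and Matn3, had orders unlike that of Mmp13 in the Scx-positive libraries. The part of cartilage-type cells in the Mmp13 level was not tested. The log2 difference of Col10a1 was 1.77 ± 0.55 with all libraries and 0.50 ± 0.14 without Scx-deleted replicate 4. Its call (adjusted p = 0.0246, edgeR) was kept in 13 of 16 alternatives and lost with limma-voom (adjusted p = 0.121) and without Scx-positive replicate 2 (0.062) or 6 (0.0607), where the range over the alternatives was 0.000227 to 0.121. The 9 cartilage markers summed to 31.4 to 106.1 CPM in Scx-deleted and 28.2 to 33.6 CPM in Scx-positive libraries. The highest of these sums includes the 81.2 CPM of Col10a1 in Scx-deleted library 4. Of 5 tested, 2 were higher (Col10a1 and Sox9) and 1 lower (Hapln1), where 14.0% of all tested genes were higher and 14.5% lower. Acan had 1 count in each group. The bone markers summed to 357.6 to 421.7 CPM in Scx-deleted and 238.3 to 263.1 CPM in Scx-positive libraries. Nearly all of this was Spp1, at 391.3 and 252.0 CPM on average, which alone was tested and was higher. The other bone markers had few counts, with 18 in all Scx-deleted and 13 in all Scx-positive libraries for Bglap and 32 and 31 for Bglap2. Alpl had 7 and 19, Sp7 1 and 8, Dmp1 2 and 0, and Ibsp 0 in both. Keratinocyte markers summed to 3.39 to 4.88 CPM in Scx-deleted and 2.62 to 3.91 CPM in Scx-positive libraries.

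The genes most like each abundant member were found by the root mean square difference of log2 CPM, each gene centred on its own mean over the 8 libraries, among 11289 genes. Nearest to Mmp3 were Pvr (0.101), a nectin-family receptor gene, Clic5 (0.104) and Dusp4 (0.112), a phosphatase gene of the MAP kinase pathway. Nearest to Mmp10 were Akr1c18 (0.286), a hydroxysteroid dehydrogenase gene, Crct1 (0.299) and Stc2 (0.301), a stanniocalcin gene. Nearest to Mmp13 were Clec2h (0.365), Prlr (0.388), the prolactin receptor gene, and Stc2 (0.409). The distance was 0.482 between Mmp10 and Mmp13, 0.507 between Mmp3 and Mmp10 and 0.536 between Mmp3 and Mmp13. Seen from Mmp13, Mmp10 ranked 13 and Mmp3 ranked 16 of all genes, and seen from Mmp10, Mmp13 ranked 14 and Mmp3 ranked 16. Seen from Mmp3, Mmp10 ranked 784 and Mmp13 ranked 1109. These are descriptions over libraries that share the 2 groups, so any gene with a difference of like size ranks near.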

How the data were processed

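RNA sequencing of 8 libraries was used. The authors deposited raw counts for each gene symbol. Their deposited comparison table gives, per the file headers, a mean of normalized counts (a signal), log2 fold changes, standard errors and statistics (scores) and p-values. Per the submitters' processing notes STAR, DESeq2, FastQC and mm10 were used. The step each served, the read counter, its annotation and its strand setting are not given there.

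Tests on the counts used edgeR 4.0.16 in R 4.3.3 (filterByExpr with a minimum count of 10 and a total of 15, TMM, quasi-likelihood test, group as the only term, Benjamini-Hochberg over 13125 genes, threshold 0.05), and the fit was checked on simulated data. SE is the log2 difference over the square root of F. CPM uses TMM factors, and lengths are exon unions of GENCODE vM21 on GRCm38. Reads in no feature (7.44% to 8.67%) and ambiguous reads (0.49% to 0.567%) were left out. DESeq2 1.42.0 and limma 3.58.1 were alternatives.

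Members, gene lists and alternatives were chosen with earlier results of these data known. Named genes are the members, Scx, the cluster and flanking genes and the 4 smallest p per list. Also named are the 3 nearest profiles per member of at least 2 CPM. Mmp11, Mmp14, Etv4, Etv5, Runx1, Cebpb, Jun, Runx2, Osmr and Ddr1 were named after their values were seen. So were the markers, genes with few or 0 counts, and Ets1, Etv1, Fosl2, Fosb, Junb, Jund, Lif and Ddr2. The values of 1 listed gene are not reported here, though list counts and medians include it. No 2 libraries of a group were closer than counting noise (chi-square over degrees of freedom of at least 2.43).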

Additional observations from a re-analysis of the deposited data

Results flagged for a closer look

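In 112 groups of 4 libraries, the gap of the highest or lowest library to its neighbour, as a share of the group's range, passed the limit of Dixon's outlier test in 12, and chance passes about 1 in 20 groups of continuous values. That rate does not apply to the 3 values of 1.0 for Mmp8, Mmp1a and Mmp20, which follow from 1 library with counts beside 3 with 0. Among the members, Mmp12 in Scx-positive replicate 3 was lowest with 1 count (0.886), and Mmp8 in Scx-positive replicate 6 was highest with 2 counts (1.0). Among other cluster genes, single libraries held all counts of a group for Mmp1a in Scx-deleted replicate 2 and Mmp20 in Scx-positive replicate 3 (1.0 each). Scx-positive replicate 5 was apart for Mmp14 (highest, 0.831), Mmp16 (lowest, 0.85) and Timp2 (highest, 0.918). Scx-deleted replicate 4 was highest for Col10a1 (0.931) and Plaur (0.924). The other values were 0.882 for Timp1 in Scx-positive replicate 2 (lowest), 0.86 for Casp12 in Scx-deleted replicate 5 (highest) and 0.953 for Birc3 in Scx-positive replicate 6 (lowest).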

How the results depend on the processing

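The member log2 differences kept their direction in every alternative that gave a value, at 1.92 to 2.41 for Mmp13, 3.04 to 3.54 for Mmp12, 1.23 to 1.36 for Mmp3 and 2.15 to 2.31 for Mmp10. Mmp12 has no value under a filter of 5 CPM. Of 812 values for 48 other named genes 766 kept direction and call, 35 lost the call, 9 gained it and 2 turned, both for Tmem123 (-0.0103 with upper-quartile scaling, -0.00416 to 0.0287 when a library was left out). At an adjusted p of 0.01, 1191 genes were higher and 1143 lower, against 1842 and 1902 at 0.05, with 0 inhibitors higher, 1 inhibitor lower and 2 transcription factors lower. Leaving out 1 library gave 3 to 5 higher Mmp genes outside the cluster, 0 to 2 higher and 1 to 2 lower inhibitors, 0 to 1 lower uptake genes, 2 to 4 lower transcription factors and 1 to 2 higher neighbours. Inhibitors higher were 0 and uptake genes lower 1 both with upper-quartile scaling and with no filter, and uptake genes lower were also 1 with DESeq2. With the longest transcript as its length Mmp12 stood at 0.345 CPM per kb in Scx-deleted and 0.0314 in Scx-positive cells. The cause of these changes was not tested.

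The labels do not say whether equal replicate numbers in the groups mark pairs. Deviations of same-numbered libraries correlated at -0.06, 0.16 and 0.06 for numbers 2, 3 and 5. Without differently numbered libraries beside them, these values cannot decide whether such libraries shared an animal or a culture. With the replicate number as a block, 1561 genes were higher and 1676 lower over all libraries, and 1585 and 1616 over numbers 2, 3 and 5. Inhibitors higher were then 0 in both fits, inhibitors lower 1 in numbers 2, 3 and 5, and uptake genes lower 1 over all libraries. Depth limits Mmp8, Mmp27, Mmp1a, Mmp1b, Mmp20 and Mmp7, which had too few counts for the fit, and makes Mmp12 the least precise of the fitted members.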
